A study of Mus musculus with 47 samples.

Results

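The MAPK feedback phosphatases and Sprouty genes described here are 10 genes, the dual-specificity phosphatases Dusp1, Dusp4, Dusp5, Dusp6, Dusp10, Dusp14 and Dusp16, the Sprouty genes Spry2 and Spry4, and the Sprouty-related gene Spred1. They were found by symbol or Ensembl identifier among the 55416 genes of the count tables, and all 10 passed the filter on low counts in both sexes. Their levels were read in the brains of 3xTg mice, which are homozygous for transgenes of human APP with the Swedish mutation (APPSwe) and mutant human tau (tauP301L) together with a mutant presenilin (PS1M146V), and which served as a model of Alzheimer's disease. From 6 months of age and for 9 months, males and females were fed an amino acid-defined Control diet or a diet low in isoleucine (IleR), leucine (LeuR) or valine (ValR), so that every group carried the same transgenes and the groups of 1 sex differed by diet. There were 4 Control, 3 IleR, 3 LeuR and 4 ValR libraries of males, and 6 Control, 5 IleR, 6 LeuR and 6 ValR libraries of females. The other 10 male libraries in the labels were not analysed here. The labels name brain as the tissue, with a line on RNA extraction that names liver, while the study's methods name the left hemisphere and its results the whole brain. The question asked of the genes was whether their levels followed the diet in males and in females.

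MAPK cascades carry signals from growth factor receptors and synapses through Ras and Raf to the ERK, JNK and p38 kinases. Dual-specificity phosphatases switch these kinases off by removing phosphate from both the threonine and the tyrosine of the activation loop, and Sprouty and Spred proteins act further upstream, on receptors, Ras and Raf. Many of these genes are themselves transcribed when the cascade is active, which makes them a negative feedback, and in neurons several of them are induced by activity together with the immediate early genes.

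RefSeq promoters (build GRCm38.p6) were at hand for 8 of the 10 genes, all but Dusp4 and Spry4. The stretches before the start of 4 of them are shown 5′ to 3′ on the strand of the gene, because Dusp6 fell, Dusp10 and Dusp5 rose, and Dusp1 passed no test in males. Capitals mark matches to the motifs searched on both strands in the 250 bases before each start, which were the cyclic AMP response element TGACGTCA, its core TGACG (which also lies inside the full element), the ETS factor core CCGGAA, the TATA element TATAAA, the box of nuclear factor Y (CCAAT) and the CArG box, the core of the serum response element. Bases within an annotated exon of the gene were left off, which shortened Dusp5 to 214 bases and Dusp1 to 203.
Dusp6, chr10:99262981-99263230, + strand: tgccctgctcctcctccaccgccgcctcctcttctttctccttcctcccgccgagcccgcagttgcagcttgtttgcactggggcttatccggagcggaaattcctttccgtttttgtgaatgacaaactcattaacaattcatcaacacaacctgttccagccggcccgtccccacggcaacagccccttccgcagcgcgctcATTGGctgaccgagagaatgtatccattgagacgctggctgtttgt
Dusp10, chr1:184034131-184034380, + strand: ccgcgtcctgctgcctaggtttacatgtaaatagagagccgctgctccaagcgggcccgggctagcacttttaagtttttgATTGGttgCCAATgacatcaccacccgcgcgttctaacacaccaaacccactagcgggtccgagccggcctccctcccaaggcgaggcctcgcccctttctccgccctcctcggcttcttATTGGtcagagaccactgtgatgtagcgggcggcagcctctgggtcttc
Dusp5, chr19:53528895-53529108, + strand: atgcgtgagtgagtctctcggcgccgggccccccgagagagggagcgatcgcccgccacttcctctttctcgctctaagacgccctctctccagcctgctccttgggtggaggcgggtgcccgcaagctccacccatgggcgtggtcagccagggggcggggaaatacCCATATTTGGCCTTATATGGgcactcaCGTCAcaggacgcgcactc
Dusp1, chr17:26508520-26508722, - strand: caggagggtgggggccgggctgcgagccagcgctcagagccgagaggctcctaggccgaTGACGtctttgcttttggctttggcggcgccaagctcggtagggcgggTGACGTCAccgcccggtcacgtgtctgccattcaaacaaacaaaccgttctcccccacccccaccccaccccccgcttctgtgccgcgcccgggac
The Dusp5 stretch held 2 CArG boxes side by side, the first bases of which lay 82 and 72 bases before the start, and 1 TGACG core. A CArG box was present in 1.47% of the 32851 promoters over the same 250 bases. The Dusp1 stretch held the full TGACGTCA, starting 143 bases before the start, which 1.55% of promoters held, and another TGACG core at 191 bases, a core that 17.8% of promoters held. CCAAT was found at 3 places before Dusp10 and at 1 before Dusp6, and in 33.8% of all promoters. Of the promoters not shown, that of Dusp14 held 1 ETS core (12.0% of promoters), that of Dusp16 held 1 TGACG core and 1 CCAAT, and those of Spry2 and Spred1 held none of these letters in the window. TATAAA, which 12.4% of promoters held, was in none of the 8 windows. The windows were rich in G and C, from 56.4% in Dusp6 to 70.8% in Spred1, against a median of 52.4% over all promoters.

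The total of expected counts was between 12682687 and 25722333 in male libraries and between 10672599 and 21370973 in female libraries, and the 10 genes had between 44 and 4492 counts in a library. The libraries stood apart in markers of brain regions. Levels of single genes are given in CPM (counts scaled by library size after normalization). Summed levels of markers, also written in CPM, were scaled by the total count of the library without that normalization. The summed level of 10 cerebellar markers was 36.6 to 113.2 CPM in Control-fed males. It was 1451 to 3936 in IleR-fed males, 253.2 to 1510 in LeuR-fed males and 1513 to 4884 in ValR-fed males. That of 10 brainstem and spinal cord markers was 0.691 to 10.2 CPM in Control-fed males, in which Hoxb5, Hoxb6 and Hoxc5 were at 0 in every library, and 75.6 to 276.2, 7.35 to 615.8 and 121.1 to 608.8 CPM in the IleR, LeuR and ValR groups. That of 10 forebrain markers was 1746 to 3993 CPM in Control-fed males and 349.6 to 531.2, 168.4 to 938.4 and 293.4 to 514.8 CPM in the IleR, LeuR and ValR groups. A hindbrain score, the mean log2 CPM of the 10 cerebellar and 4 of the brainstem markers minus that of the forebrain markers, lay between -7.61 and -4.58 in Control-fed males and was higher in every restricted male library, at 1.97 to 3.73 on IleR, -3.05 to 3.40 on LeuR and 3.80 to 5.13 on ValR. In females it ranged from -7.38 to 1.35 on Control, -7.28 to 0.30 on IleR, -7.03 to 4.77 on LeuR and -6.76 to 0.87 on ValR, with overlap between all 4 diets. The summed level of 8 oligodendrocyte markers was 4276 to 9251 CPM in Control-fed males and higher in every IleR (10915 to 15608 CPM) and ValR library (9834 to 16661 CPM), with LeuR at 6702 to 18287 CPM, although none of the 8 passed the test. That of 8 pan-neuronal markers was 4631 to 5681 CPM on Control, 4030 to 4550 on IleR, 3826 to 5020 on LeuR and 4256 to 4947 on ValR, so that IleR lay below Control, and 1 of the 8 rose and 1 fell on each diet. Of 8 astrocyte markers 2, 1 and 2 rose and 1 fell on IleR, LeuR and ValR, of 8 microglial markers 2 fell on IleR and 4 on ValR, and of 5 oligodendrocyte precursor markers 2 fell on ValR. The summed level of the latter 5 was 231.3 to 333.5 CPM on Control, 249.9 to 372.4 on IleR, 345.0 to 381.7 on LeuR and 222.1 to 303.4 on ValR, so that LeuR lay above Control. No marker of endothelium, meninges, choroid plexus or blood passed. The part of these cell types in the changes of the 10 genes was not tested. In males the score and the diet could not be told apart, and in bulk tissue fewer cells of a type and less RNA per cell cannot be told apart.

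On a scale that allows genes to be compared, CPM per kilobase of exon, Spred1 was the most abundant of the 10 genes in Control-fed males, at 35.1 ± 5.64 (SD, n = 4). Dusp14 (23.15 ± 10.0), Spry2 (20.5 ± 5.88) and Dusp6 (15.75 ± 6.28) followed. The ranges of mean ± 1 SD overlapped between neighbours among these first 4 genes, and Dusp6 stood apart from the next. Dusp1 (7.47 ± 1.72), Dusp4 (5.73 ± 2.27), Dusp5 (5.01 ± 2.38) and Spry4 (3.65 ± 0.297) came below, with overlapping ranges from each to the next, and Spry4 stood apart from Dusp16. Dusp16 (2.29 ± 0.416) and Dusp10 (2.09 ± 0.475) were lowest and overlapped each other. In ValR-fed males the order was another one. Spred1 still led at 22.1 ± 1.62 CPM per kilobase (n = 4), Dusp5 was next at 18.8 ± 5.69 and overlapped it, and Dusp14 had moved near the bottom at 3.84 ± 0.420.

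**Figure D1:**
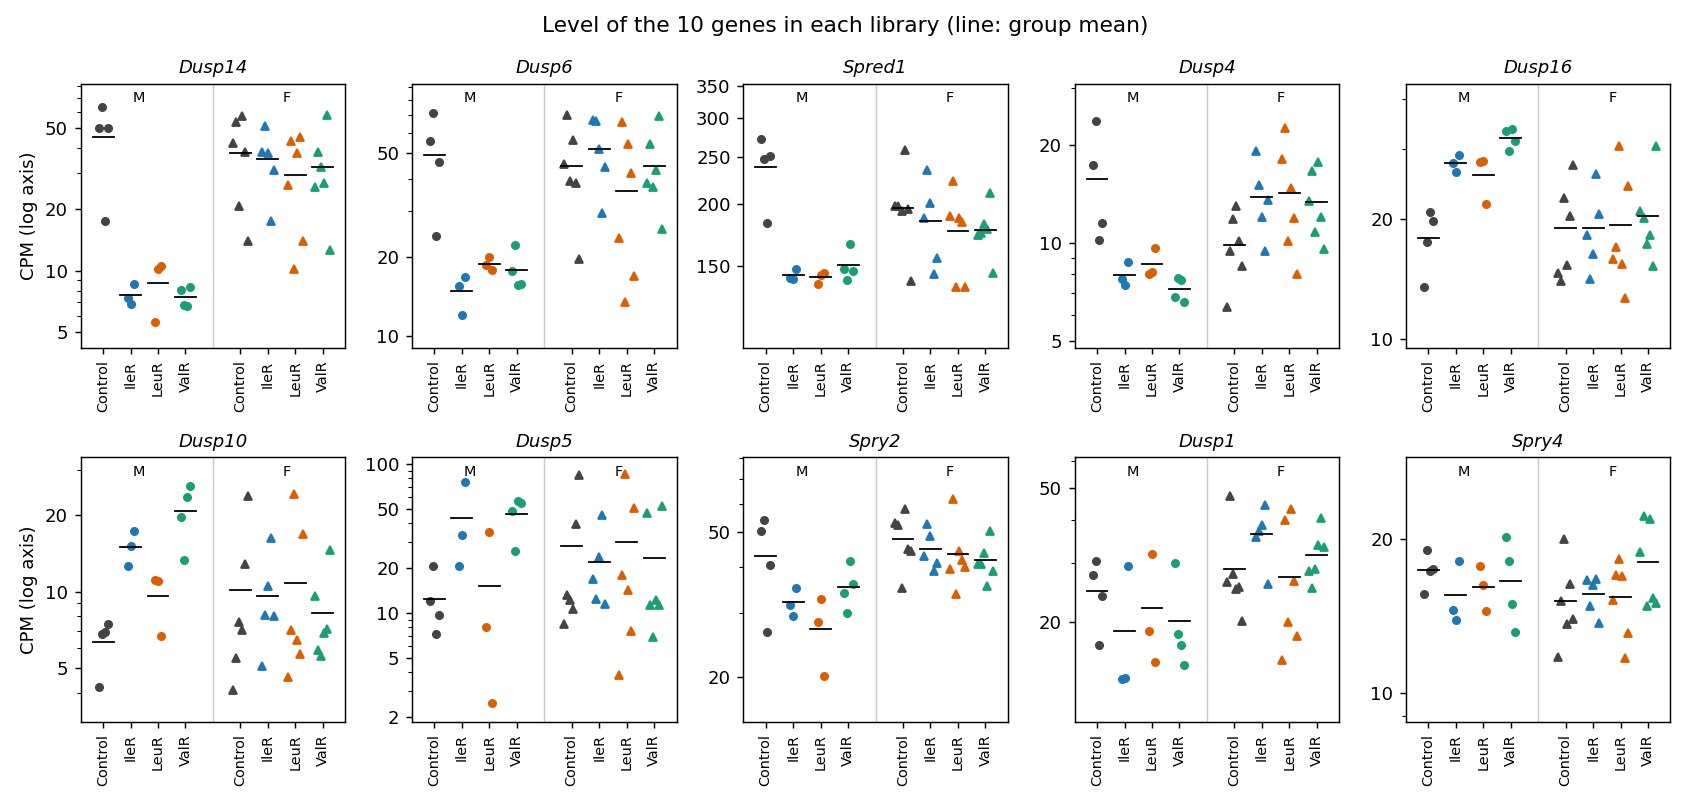
CPM of each gene in each library (log axis), with circles for males, triangles for females and a line at the group mean. In males, Dusp14, Dusp6, Spred1 and Dusp4 lay lower in every restricted library than in every Control library and Dusp16 lay higher, while in females the 4 diets overlapped for all 10 genes.

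In males, 4 of the 10 genes fell on every restricted diet (Dusp14, Dusp6, Spred1 and Dusp4), and 1 rose on all of them (Dusp16). Dusp10 rose on IleR and ValR and Dusp5 on ValR. Spry2, Spry4 and Dusp1 passed the test on none of the diets. On IleR, 4 genes fell where 8.68% of all 22197 genes tested did, and 2 rose against 6.63% of all genes. On LeuR, 4 fell against 6.33% and 1 rose against 3.81%. On ValR, 4 fell against 12.4% and 3 rose against 11.1%. The median log2 fold change of the 10 genes was -0.41, -0.42 and -0.29 on IleR, LeuR and ValR, and that of all genes 0.04, 0.05 and 0.03. The 3 comparisons share the 4 Control libraries and are not independent of each other. In fits with the hindbrain score as a covariate none of the 10 passed (adjusted p between 0.686 and 0.997 over the 3 diets), and of all 22197 genes 3 passed on IleR, 11 on LeuR and 0 on ValR. In a fit of only LeuR and Control libraries, 0 of 21015 genes passed, so none of the 10 did, with log2 fold changes of -2.36 for Dusp14, -1.37 for Dusp6, -0.74 for Spred1, -0.86 for Dusp4 and 0.53 for Dusp16.

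**Figure D2:**
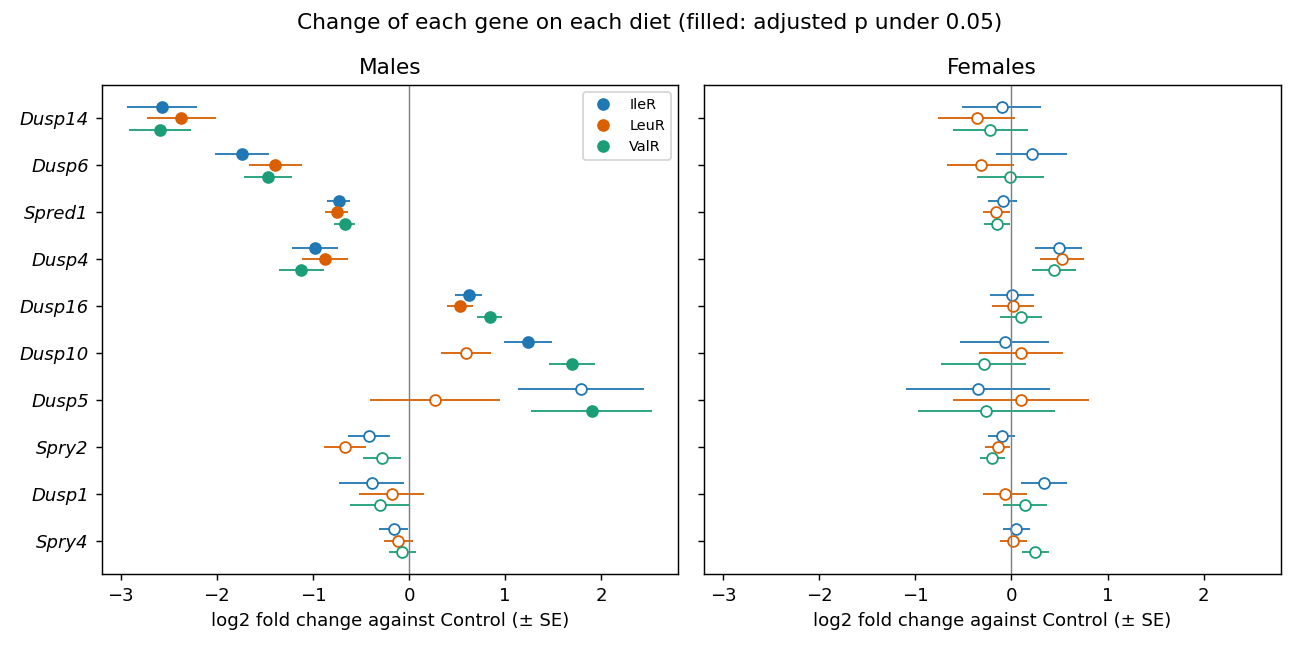
Log2 fold change of each gene against Control with its standard error, in males (left) and females (right), filled where the adjusted p was under 0.05. In males the changes ran from -2.59 for Dusp14 on ValR to 1.90 for Dusp5 on ValR, and in females from -0.36 to 0.53 with no filled point.

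Among the phosphatases that act on ERK, Dusp6, which works in the cytoplasm and is a direct readout of ERK signalling, fell on all 3 diets (ENSMUSG00000019960, chr10:99263231-99267489, + strand, GRCm38 as for all genes). It stood at 55.6, 71.1, 24.1 and 46.5 CPM in Control libraries 1, 3, 4 and 5, at 15.6, 12.0 and 16.8 CPM in IleR libraries 13, 14 and 17, at 18.7, 20.0 and 17.9 CPM in LeuR libraries 19, 20 and 21, and at 17.7, 22.2, 15.7 and 15.9 CPM in ValR libraries 7, 9, 10 and 12. Every restricted library was below every Control library, and Control 4 was the Control library nearest to them. The log2 fold change was -1.74 ± 0.28 (SE) on IleR (3.34-fold lower, adjusted p = 0.00176), -1.39 ± 0.28 on LeuR (2.61-fold lower, adjusted p = 0.0106) and -1.47 ± 0.25 on ValR (2.76-fold lower, adjusted p = 0.00108).

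Dusp5, the nuclear counterpart that is specific for ERK, went the other way (ENSMUSG00000034765, chr19:53529109-53542431, + strand). It was at 12.05, 20.7, 7.19 and 9.61 CPM in the Control libraries, at 20.55, 33.3 and 75.2 CPM on IleR, at 8.06, 35.0 and 2.48 CPM on LeuR and at 48.2, 26.0, 56.4 and 55.0 CPM on ValR, in the same order of libraries. Only the ValR libraries lay apart from Control, and the LeuR libraries held both the lowest value of all male libraries and one above every Control library. Its level rose on ValR (log2 fold change 1.90 ± 0.63, 3.74-fold, adjusted p = 0.0443), and was 1.79 ± 0.66 higher on the log2 scale on IleR (adjusted p = 0.0864) and 0.27 ± 0.68 higher on LeuR (adjusted p = 0.837). The ValR call was lost without Control 1 (adjusted p = 0.0963), Control 4 (0.0926), Control 5 (0.102), IleR 14 (0.058), ValR 7 (0.08), ValR 10 (0.0949) or ValR 12 (0.0934), and the IleR difference passed without LeuR 20 (0.0287) or LeuR 21 (0.0311) and with only IleR and Control libraries in the fit (0.0358). Without IleR 17 the IleR difference was 1.11 (adjusted p = 0.36). Without LeuR 20 the LeuR difference turned to -1.22. The gene AC137853.2 lies antisense to Dusp5, with exons that overlap and at most 59 counts in a male library. Whether the counting used the strand is not stated.

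Dusp4 and Dusp1 encode inducible nuclear phosphatases that act on ERK, JNK and p38. They lie apart in the genome (Dusp4, ENSMUSG00000031530, chr8:34807297-34819894, + strand, and Dusp1, ENSMUSG00000024190, chr17:26505590-26562128, - strand). Dusp4 fell on all 3 diets, from 17.4, 23.8, 10.2 and 11.5 CPM in the Control libraries to 7.76, 7.42 and 8.71 CPM on IleR, 8.01, 8.14 and 9.65 CPM on LeuR and 6.84, 7.82, 7.67 and 6.56 CPM on ValR. No restricted library reached the lowest Control library, although LeuR 21 came close to it. The log2 fold change was -0.98 ± 0.24 on IleR (adjusted p = 0.0164), -0.87 ± 0.24 on LeuR (adjusted p = 0.0393) and -1.12 ± 0.23 on ValR (adjusted p = 0.00297). The IleR call was lost without IleR 13 (adjusted p = 0.0508) or IleR 14 (0.0733), with only IleR and Control libraries in the fit (0.0515), and with the hindbrain score as a covariate. The LeuR call was lost without Control 1 (adjusted p = 0.103), Control 3 (0.106), IleR 13 (0.0508), IleR 14 (0.0566), LeuR 19 (0.143), LeuR 20 (0.096), ValR 7 (0.0567) or ValR 10 (0.0538), in limma voom (0.0622), with only LeuR and Control libraries in the fit (0.154), and with the covariate. Dusp1 ranged from 17.1 to 30.2 CPM on Control, from 13.5 to 29.4 on IleR, from 15.2 to 31.9 on LeuR and from 15.0 to 30.0 on ValR, and these ranges overlapped. Its log2 differences from Control were -0.39 ± 0.34, -0.18 ± 0.34 and -0.30 ± 0.31, with 95% intervals of -1.12 to 0.33, -0.90 to 0.55 and -0.97 to 0.37 (adjusted p = 0.487, 0.779 and 0.546), and the LeuR value was 0.05 without LeuR 21. Exons of Dusp1 overlap those of Ergic1 on the other strand, a gene with up to 2362 counts in a male library, so its values are uncertain.

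Dusp10 and Dusp16, which act mainly on JNK and p38, were higher on restricted diets (Dusp10, ENSMUSG00000039384, chr1:184013302-184075636, + strand, and Dusp16, ENSMUSG00000030203, chr6:134715468-134792625, - strand). Dusp16 was at 13.5, 17.5, 20.8 and 19.7 CPM in the Control libraries, at 27.6, 26.3 and 28.9 CPM on IleR, at 27.7, 27.9 and 21.8 CPM on LeuR and at 33.1, 29.7, 33.6 and 31.4 CPM on ValR. All 10 restricted libraries were above the 4 Control libraries, and LeuR 21 was nearest to them. It rose by a log2 fold change of 0.62 ± 0.14 on IleR (1.54-fold, adjusted p = 0.00817), 0.53 ± 0.14 on LeuR (1.44-fold, adjusted p = 0.0285) and 0.84 ± 0.13 on ValR (1.78-fold, adjusted p = 0.000538). The LeuR call was lost without Control 1 (adjusted p = 0.0639), Control 3 (0.0792), LeuR 19 (0.12) or LeuR 20 (0.0944).

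Dusp10 was at 4.22, 6.80, 6.94 and 7.43 CPM in the Control libraries, at 12.7, 15.1 and 17.2 CPM on IleR, at 11.1, 11.0 and 6.72 CPM on LeuR and at 19.7, 13.35, 23.65 and 25.9 CPM on ValR. The IleR and ValR libraries lay above Control, while LeuR 21 fell among the Control libraries. It rose on IleR (1.24 ± 0.25 on the log2 scale, 2.36-fold, adjusted p = 0.0058) and on ValR (1.70 ± 0.24, 3.25-fold, adjusted p = 0.000326), and the LeuR difference was 0.59 ± 0.26 (95% interval 0.04 to 1.14, adjusted p = 0.156). Dusp10 was also the only gene of the 10 to differ between restricted diets. It was higher on ValR than on LeuR by 1.11 ± 0.26 on the log2 scale (adjusted p = 0.0491), in a comparison in which 2.75% of all genes passed. That call was lost in 10 of the 14 fits that left out 1 male library, with adjusted p-values up to 0.152 (without LeuR 21), namely those without Control 1, 3 or 5, IleR 13 or 14, LeuR 19 or 21, or ValR 7, 10 or 12. It was also lost with only ValR and LeuR libraries in the fit (adjusted p = 0.119) and in the fit with the score covariate (0.355). In each of these fits 0 of all genes passed. Between IleR and LeuR and between ValR and IleR, none of the 10 passed in edgeR, DESeq2 or limma voom. Of all genes 0.0% passed in edgeR and in limma voom in both comparisons, while DESeq2 called 79 higher and 28 lower of 17422 between IleR and LeuR and 7 lower of 22152 between ValR and IleR. At an unadjusted p under 0.05 there was 1 of the 10 between IleR and LeuR (Dusp10, 0.65 ± 0.27, 95% interval 0.07 to 1.23), beside 2512 of all 22197 genes, and there were 0 between ValR and IleR, beside 628, and 3 between ValR and LeuR (Dusp10, Dusp5 and Dusp16), beside 5294.

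Dusp14, a small atypical phosphatase that lacks the kinase-binding domain of the others and has been linked to ERK and JNK, fell the most (ENSMUSG00000018648, chr11:84048041-84069261, - strand). It was at 49.65, 63.3, 17.4 and 49.7 CPM in the Control libraries, at 7.32, 6.86 and 8.65 CPM on IleR, at 5.60, 10.1 and 10.5 CPM on LeuR and at 8.06, 6.81, 6.72 and 8.28 CPM on ValR. The restricted libraries did not reach the lowest Control library, Control 4, which itself lay far below the other Control libraries. The log2 fold change was -2.57 ± 0.36 on IleR (5.92-fold lower, adjusted p = 0.0011), -2.37 ± 0.36 on LeuR (5.17-fold lower, adjusted p = 0.00392) and -2.59 ± 0.32 on ValR (6.03-fold lower, adjusted p = 0.000181). Without any 1 male library it was between -2.86 and -2.12 over the 3 diets and passed each time. With the hindbrain score as a covariate it was -0.55, -0.92 and -0.28 (adjusted p = 0.902, 0.756 and 0.957).

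Of the Sprouty family, Spred1, which tethers neurofibromin to the membrane and so holds back Ras, fell by a modest amount (ENSMUSG00000027351, chr2:117121374-117182279, + strand). It was at 271.7, 247.5, 183.3 and 251.0 CPM in the Control libraries, at 141.7, 141.0 and 147.9 CPM on IleR, at 137.3, 143.4 and 145.1 CPM on LeuR and at 147.8, 140.4, 165.8 and 146.3 CPM on ValR. No restricted library reached the lowest Control library. The log2 fold change was -0.73 ± 0.12 on IleR (1.66-fold lower, adjusted p = 0.00166), -0.75 ± 0.12 on LeuR (1.68-fold lower, adjusted p = 0.00425) and -0.67 ± 0.11 on ValR (1.59-fold lower, adjusted p = 0.000693), and it passed in all 14 fits without 1 male library.

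Spry2 and Spry4, inhibitors of growth factor receptor signalling to ERK, did not pass the test (Spry2, ENSMUSG00000022114, chr14:105891947-105896819, - strand, and Spry4, ENSMUSG00000024427, chr18:38586247-38601415, - strand). Spry2 ranged from 26.5 to 54.0 CPM on Control, 29.4 to 35.1 on IleR, 20.0 to 32.7 on LeuR and 29.9 to 41.6 on ValR. The lowest Control library, Control 4, lay within the restricted range, and the other 3 Control libraries lay above all IleR and LeuR libraries. The log2 differences were -0.42 ± 0.22, -0.67 ± 0.22 and -0.28 ± 0.20 (adjusted p = 0.221, 0.0706 and 0.361), with 95% intervals of -0.89 to 0.05, -1.14 to -0.19 and -0.71 to 0.16. Without Control 4 the IleR difference (-0.59, adjusted p = 0.0315) and the LeuR difference (-0.84, adjusted p = 0.00634) passed, and DESeq2 called the LeuR difference (adjusted p = 0.027). Spry4 varied least, with a highest value 1.54 times the lowest over the 14 male libraries. Its log2 differences were -0.16 ± 0.15, -0.11 ± 0.15 and -0.07 ± 0.14, with 95% intervals of -0.49 to 0.17, -0.44 to 0.23 and -0.38 to 0.24, and the ValR value was 0.03 without ValR 12.

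In females none of the 10 genes passed the test on any diet in edgeR, DESeq2 or limma voom. At an unadjusted p under 0.05 there were 0 on IleR, 1 on LeuR (Dusp4) and 0 on ValR. In edgeR 0.0% of all 20344 genes tested passed on IleR, 0.0% on LeuR and 0.0% on ValR. An unadjusted p under 0.05 was seen there for 577, 820 and 777 genes. DESeq2 called 8 of 20336 genes on IleR, 1 on LeuR and 0 on ValR, and limma voom 1, 0 and 0. Dusp14 had a lowest, median and highest value of 13.9, 40.2 and 57.2 CPM on Control, 10.1, 31.9 and 45.2 on LeuR and 12.7, 29.4 and 57.9 on ValR, and stood at 38.2, 51.1, 37.9, 17.5 and 31.2 CPM in IleR libraries 38 to 42. All 4 female diets overlapped, and each held at least 1 library near the lowest Control library. Its log2 differences from Control were -0.10 ± 0.41, -0.36 ± 0.40 and -0.22 ± 0.39 on IleR, LeuR and ValR, with 95% intervals of -0.96 to 0.76, -1.18 to 0.46 and -1.04 to 0.59.

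Dusp6 was likewise wide, with 19.7, 42.35 and 69.9 CPM (lowest, median and highest) on Control, 13.5, 32.8 and 65.7 on LeuR, 25.6, 40.8 and 69.4 on ValR and 67.0, 66.6, 52.1, 29.5 and 44.25 CPM in the IleR libraries. The log2 differences were 0.21 ± 0.37, -0.32 ± 0.35 and -0.01 ± 0.35, and the 95% intervals reached from -1.05 to 0.97 over the 3 diets. Dusp5 had the widest range of the 10 genes in females, from 3.84 CPM in LeuR 43 to 85.0 in LeuR 45, both on the same diet. Dusp10 ranged from 4.11 CPM in Control 25 to 24.2 in LeuR 45, with Control 30 close to the top at 23.8. Dusp4 had 6.34, 9.80 and 13.0 CPM on Control, 8.04, 13.4 and 22.5 on LeuR, 9.57, 12.7 and 17.8 on ValR and 19.1, 15.1, 12.0, 9.46 and 13.6 CPM in the IleR libraries. Its mean was higher on each restricted diet than on Control, the opposite side to males, by 0.49 ± 0.24, 0.53 ± 0.23 and 0.44 ± 0.23 on the log2 scale (95% intervals -0.01 to 0.99, 0.05 to 1.01 and -0.04 to 0.92), with adjusted p-values of 1.0, 0.968 and 1.0. For Spred1 the intervals lay between -0.46 and 0.22, for Spry2 between -0.47 and 0.19 and for Spry4 between -0.26 and 0.53, so that changes of the size of Spred1 in males were outside the female intervals. The edgeR test of a difference between the sexes did not pass for Spred1 on IleR, LeuR or ValR (adjusted p = 0.117, 0.25 and 0.0989).

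Whether the change differed between the sexes was tested in 1 fit of all 37 libraries, as the male change minus the female change. On ValR, Dusp4 differed by -1.57 ± 0.35 on the log2 scale (adjusted p = 0.0144) and Dusp14 by -2.37 ± 0.58 (adjusted p = 0.0234), where 4.25% of all genes passed. Both were lost in limma voom and with the hindbrain score as a covariate, Dusp4 was lost without the male Control 3 (adjusted p = 0.0521), and Dusp14 without the male Control 3 (0.0634), ValR 10 (0.0633) or ValR 12 (0.0557). On ValR 6 of the 10 had an unadjusted p under 0.05 (Dusp4, Dusp6, Dusp10, Dusp14, Dusp16 and Spred1), as did 5835 of 22465 genes. Dusp10 on ValR, at 1.95 ± 0.60, had an adjusted p of 0.0552, and on ValR 1 of the 10 passed as higher in DESeq2 (beside 810 of 18099 genes), in filterByExpr (271 of 18194) and with only the groups compared in the fit (375 of 21049). On IleR none of the 10 passed in edgeR, 4 had an unadjusted p under 0.05 (Dusp4, Dusp6, Dusp14 and Spred1) as did 4280 of all 22465 genes, and 0.0979% of all genes passed in edgeR. DESeq2 called 3 of the 10, beside 154 genes higher and 888 lower of 17665, and limma voom 0 of all genes. On LeuR none passed in edgeR, 4 had an unadjusted p under 0.05 (Dusp4, Dusp14, Spry2 and Spred1) as did 2911 of all genes, and 0.00445% of all genes passed in edgeR. DESeq2 called 2 of the 10, beside 73 genes higher and 237 lower of 14617, and limma voom none of the 10. With only the groups compared in the fit, 2 of the 10 passed as lower on IleR, beside 299 of 21709 genes, and 0 on LeuR, where 0 of 21286 genes did.

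The levels of 7 of the 10 genes were related to the hindbrain score among females, in which it did not separate the diets, as were those of many other genes. Over the 23 female libraries, log2 CPM rose with the score for Dusp10 (r = 0.91, rho = 0.77), Dusp16 (r = 0.88, rho = 0.85) and Dusp5 (r = 0.87, rho = 0.69), and fell with it for Dusp14 (r = -0.88, rho = -0.83), Dusp6 (r = -0.83, rho = -0.79), Spred1 (r = -0.79, rho = -0.75) and Spry2 (r = -0.59, rho = -0.68). The two-sided permutation p of these 7 was between 1e-05 and 0.0032 for r and between 1e-05 and 0.00064 for rho, in 10 relations computed and with no adjustment, and 1e-05 is the smallest that 100000 permutations can give. Of all 20344 genes tested in females, 35.4% had an r of at least 0.59 in size, the smallest among these 7, and 14.2% had at least 0.8, as 5 of the 10 did. The median size of r was 0.81 over the 10 genes and 0.44 over all genes. Dusp4 gave r = -0.44 (permutation p = 0.034) and rho = -0.35 (permutation p = 0.099). Dusp1 (r = -0.35, rho = -0.36) had a permutation p of 0.098 for r and 0.09 for rho, and Spry4 (r = 0.18, rho = 0.28) of 0.42 and 0.20. Without the 2 libraries farthest from the median score, r was 0.87 for Dusp10, 0.82 for Dusp16, 0.81 for Dusp5, -0.82 for Dusp14, -0.73 for Dusp6, -0.71 for Spred1, -0.55 for Spry2, -0.38 for Dusp4, -0.15 for Dusp1 and 0.18 for Spry4, and after the diet means were removed it was 0.92, 0.90, 0.88, -0.88, -0.85, -0.80, -0.61, -0.54, -0.34 and 0.20 in the same order. Of the genes that rose with the score in females, Dusp16 passed as higher on 3 restricted diets in males, Dusp10 on IleR and ValR, and Dusp5 on ValR. Of those that fell with it, Dusp14, Dusp6 and Spred1 passed as lower on 3 diets in males and Spry2 on none, while Dusp4, lower on 3 diets in males, had no relation by rho that passed. The 5 female libraries with a score above 0 (Control 30, IleR 41, LeuR 45, LeuR 48 and ValR 36) came from all 4 diets. The part of the score in the male differences was not tested beyond the covariate fit, since it does not overlap between Control and the restricted males.

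**Figure D3:**
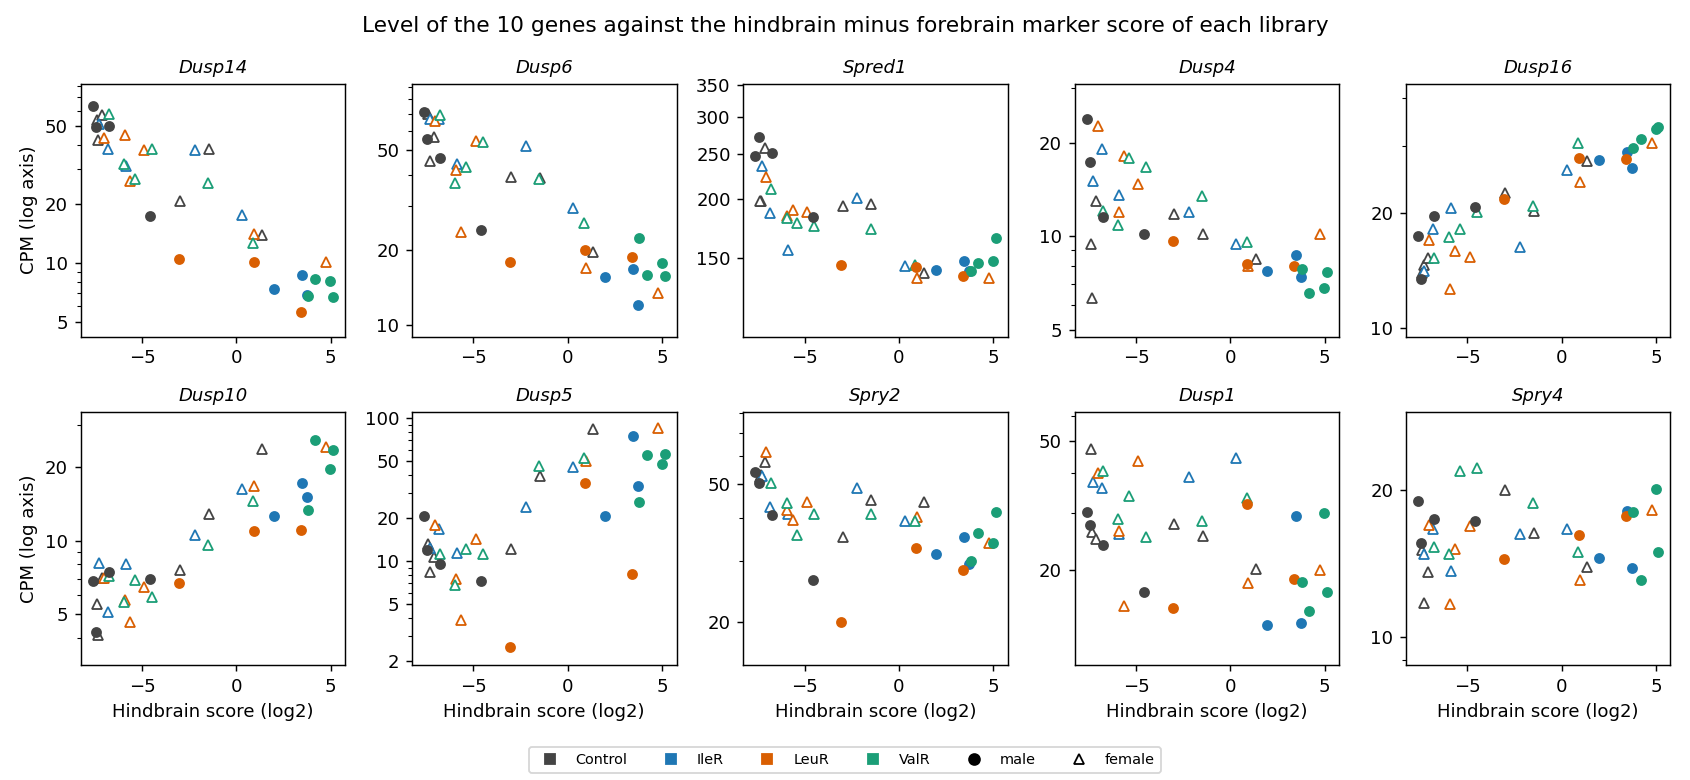
CPM of each gene (log axis) against the hindbrain score of the library, with filled circles for males, open triangles for females and colours for diets. Male Control libraries lie at scores of -7.61 to -4.58 and the other male libraries at -3.05 to 5.13, and female libraries of every diet spread along the same axis, with Dusp14 and Dusp6 lower and Dusp10 and Dusp16 higher to the right.

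The rest of the pathway was read from 6 lists, whose counts stand beside 8.68%, 6.33% and 12.4% of all genes that fell on IleR, LeuR and ValR and 6.63%, 3.81% and 11.1% that rose. Of 13 other MAPK phosphatases, Sprouty and Spred genes, 4, 5 and 5 fell on IleR, LeuR and ValR in males and 1 rose on each. The 1 that rose was Dusp15, an atypical phosphatase of oligodendrocytes, by 0.76 ± 0.21, 0.96 ± 0.21 and 0.84 ± 0.20 on the log2 scale (adjusted p = 0.0286, 0.0157 and 0.00834). Dusp7, a cytoplasmic ERK phosphatase close to Dusp6, fell, with log2 fold changes of -1.07 ± 0.16, -0.97 ± 0.16 and -1.16 ± 0.15 (adjusted p = 0.00137, 0.00531 and 0.000202). Dusp18 fell to 13.3 ± 2.95 CPM on IleR and 10.7 ± 1.16 on ValR from 31.7 ± 8.71 on Control (adjusted p = 0.00217 and 0.000185), and Spred2 on LeuR by a log2 fold change of -0.82 ± 0.22 (adjusted p = 0.0313). Dusp15 was lost on IleR without Control 1, 3 or 5 or any of the 3 IleR libraries, and on LeuR without Control 1, Control 3 or LeuR 19. The count that rose was 2 on LeuR without LeuR 21 and 2 on ValR without Control 4. The count that fell was 2 on IleR without IleR 14. On LeuR it was 1 without Control 1, Control 3 or LeuR 19, 2 without Control 5 or LeuR 21, and 3 without IleR 14, LeuR 20, ValR 7 or ValR 10.

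Of 25 genes of the Ras, Raf, MAP2K and MAPK core, 7, 8 and 7 fell and 1, 0 and 4 rose. Mapk12, a p38 kinase, rose from 7.09 ± 2.00 CPM to 29.3 ± 7.66 on IleR and 36.6 ± 6.57 on ValR (adjusted p = 0.00176 and 0.000261). Mapk11, another p38 kinase, fell on IleR (-1.10 ± 0.18 on the log2 scale, adjusted p = 0.00189) and LeuR (-0.96 ± 0.18, adjusted p = 0.00831). On ValR, Mapk7, the ERK of the Mek5 branch, rose by 0.73 ± 0.19 (adjusted p = 0.0143) and the scaffold gene Ksr1 changed by -0.96 ± 0.15 (adjusted p = 0.000695). The LeuR count that fell was 4 without Control 1, Control 3 or LeuR 19 and 5 without Control 5, and the count that rose was 3 on LeuR without Control 4, 2 on LeuR without LeuR 21, and 2 on IleR without Control 4, LeuR 19, LeuR 21 or ValR 9.

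Of 26 receptors and Ras regulators, 2, 3 and 7 fell and 3, 1 and 5 rose. Rasgrp1, a Ras activator, was 502 ± 197 CPM on Control and 43.3 ± 12.7 on IleR, 84.8 ± 56.6 on LeuR and 43.8 ± 6.35 on ValR (11.6-, 5.93- and 11.5-fold lower, adjusted p = 0.00137, 0.0103 and 0.000261). Fgfr1, a receptor for fibroblast growth factors, rose 1.91-, 1.59- and 2.02-fold (adjusted p = 0.00146, 0.0134 and 0.000242), and Sos2, another Ras activator, 1.22-fold on IleR and 1.23-fold on ValR (adjusted p = 0.025 and 0.00959). On IleR 1 gene rose without Control 1, 3 or 5 or IleR 13, and 5 rose and 5 fell without LeuR 21. On LeuR 0 rose without LeuR 19, 2 without Control 1, Control 4, LeuR 20 or ValR 9, and 3 without LeuR 21. On ValR 3 rose without Control 3, Control 5, ValR 7, ValR 10 or ValR 12.

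Of 17 growth factor ligands tested, 3, 3 and 4 fell and 2, 1 and 5 rose. Fgf1 rose 2.64-, 2.83- and 2.69-fold (adjusted p = 0.00419, 0.00706 and 0.00137), while Bdnf, the activity-induced neurotrophin, fell 2.16-, 2.05- and 2.79-fold (adjusted p = 0.0181, 0.0344 and 0.00128). Egf rose on IleR (1.90-fold, adjusted p = 0.0289) and Nrg1 on ValR (2.04-fold, adjusted p = 0.0302). Pdgfb fell on IleR (2.17-fold, adjusted p = 0.00267), and Nrg3 on LeuR (1.80-fold, adjusted p = 0.0241) and ValR (2.41-fold, adjusted p = 0.000538). The count of ligands that fell on LeuR was 0 without Control 1, Control 3 or LeuR 19 and 1 without LeuR 20. The count that rose was 1 on IleR without Control 3, Control 5, IleR 13 or IleR 14 and 4 without LeuR 21. It was 2 on LeuR without ValR 9, 3 without Control 4 and 5 without LeuR 21, and 3 on ValR without Control 3, Control 5 or ValR 7.

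Of 17 ERK output and other feedback genes, 4, 3 and 4 fell and 2, 0 and 4 rose. The ETS factor genes of this list moved apart. Etv5, a target of ERK signalling, fell 2.34-, 2.57- and 2.18-fold (adjusted p = 0.00232, 0.00425 and 0.00105), and Etv1 rose 2.78-fold on IleR and 3.77-fold on ValR (adjusted p = 0.0277 and 0.00342). The ERK-activated kinase gene Rps6ka1 rose 3.53-fold on IleR and 4.51-fold on ValR (adjusted p = 0.00159 and 0.000196), and Rps6ka3 was lower on LeuR by 2.05-fold (adjusted p = 0.0198). Srf, whose product binds the CArG box, fell on IleR (2.01-fold, adjusted p = 0.00175), and Phlda1 on ValR (2.31-fold, adjusted p = 0.000383). The count that rose was 1 on IleR without Control 1, 3 or 5 or IleR 14 or 17, 1 on LeuR without LeuR 21 or ValR 9, and 2 on ValR without Control 3, Control 5 or ValR 12. The LeuR count that fell was 1 without LeuR 19 and 6 without Control 4.

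The 13 immediate early genes, which neurons transcribe within minutes of activity, fell most often, with 9, 8 and 10 lower and 0 higher. The median log2 fold change of this list was -2.08, -1.83 and -2.33, against 0.04, 0.05 and 0.03 over all genes. Egr1 fell from 293 ± 165 CPM on Control to 36.5 ± 6.66 on IleR and 34.9 ± 11.6 on LeuR (adjusted p = 0.00111 and 0.00359). Egr3 fell from 175 ± 101 CPM to 4.80 ± 2.35, 11.4 ± 8.77 and 2.52 ± 1.02 (adjusted p = 0.00152, 0.00818 and 0.000173), and Egr4 on ValR 11.5-fold (adjusted p = 0.00108). With the hindbrain score as a covariate 0 genes of each of the 6 lists fell or rose on any diet, in a fit in which 0, 1 and 0 of all genes fell and 3, 10 and 0 rose on IleR, LeuR and ValR. In the fit of only LeuR and Control libraries, in which 0 of 21015 genes passed, 0 genes of each list fell or rose on LeuR. Without LeuR 19 the list's count on LeuR was 4, and without Control 3 it was 5. In females no gene of these 6 lists passed.

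**Figure D4:**
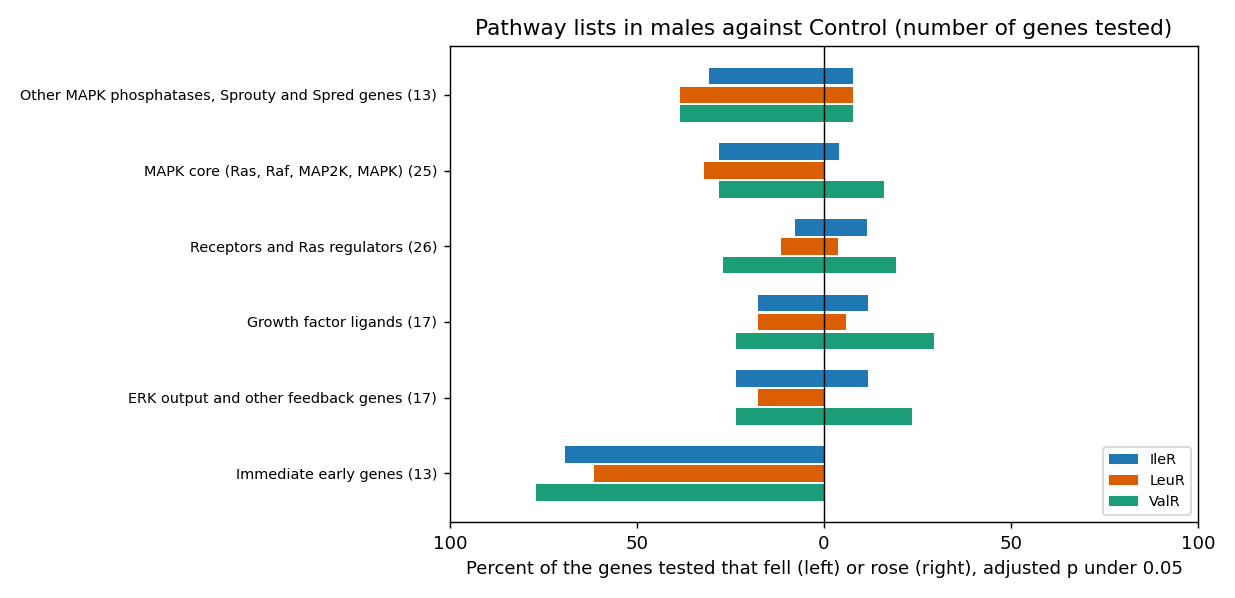
Share of the tested genes of each pathway list that fell (bars to the left) or rose (bars to the right) in males on each diet, with the number of genes tested in brackets. The 13 immediate early genes moved in 1 direction, with 9, 8 and 10 lower on IleR, LeuR and ValR, while the other lists hold genes of both directions on IleR and ValR.

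The genes whose log2 CPM was most like that of each of the 10 were named over the 23 female libraries, as a description, with their correlation over the 14 male libraries in second place. All pairs share the same libraries, and their relation to the hindbrain score was not tested. Dusp14 was most like R3hdm1 (r = 0.98 and 0.981), Cap2 (0.978 and 0.958) and Inka2 (0.977 and 0.964). Dusp6 was most like Egr1 (0.963 and 0.944), the immediate early transcription factor gene, then Ier5 (0.947 and 0.927) and Ppp1r3g (0.945 and 0.968). Spred1 was most like Ppp2r5a (0.929 and 0.901), Homer1 (0.925 and 0.974), a synaptic scaffold gene, and Jcad (0.918 and 0.922).

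Dusp5 was most like the host gene of a microRNA, Mir124a-1hg (0.973 and 0.899), Etv1 (0.965 and 0.933) and Neurod1 (0.961 and 0.925). The last of these is a transcription factor gene of granule neurons. Dusp10 was most like Arhgap5 (0.967 and 0.806), Lurap1 (0.963 and 0.912) and Mindy2 (0.958 and 0.919), and Dusp16 most like Abca2 (0.955 and 0.953), Kif13a (0.947 and 0.937) and Fnbp1 (0.941 and 0.946). For Dusp1 the nearest genes were Arc (0.833 and 0.49), Fos (0.797 and 0.883) and Btg2 (0.785 and 0.667), which are immediate early genes too. Spry2 was nearest to Sec14l1 (0.854 and 0.908), Jak2 (0.843 and 0.853) and Acvr1c (0.841 and 0.79). Dusp4 was nearest to Irf1 (0.769 and 0.11), Uprt (0.763 and 0.575) and Nrp1 (0.751 and 0.407), and Spry4 to Tram1 (0.753 and -0.306), Slc25a30 (0.714 and 0.126) and Smarca5 (0.713 and -0.551).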

How the data were processed

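Brain RNA of 3xTg mice was sequenced, and the authors aligned the reads to GRCm38.p5 and deposited expected counts per Ensembl gene with no normalization. The aligner and its version are not given in the sources used here, the labels and methods differ on polyA or total RNA, and per the methods, outliers seen in a PCA had been dropped by the authors (who used R 3.4.3, edgeR and limma). Tables of the authors' own comparisons (fold changes and p-values) were not used. Between 3.69% and 4.93% of counts in a library were not whole, and counts were rounded. A gene was tested if some diet group had 1 or more counts of it in each library, with edgeR 4.0.16 in R 4.3.3 (TMM, quasi-likelihood test, all 4 diets of a sex in 1 fit, Benjamini-Hochberg over all genes, threshold 0.05). SE and 95% intervals of log2 fold changes came from that fit. CPM uses TMM library sizes, except for the summed marker levels, which use library totals, and log2 CPM a prior count of 2. DESeq2 1.42.0 and limma 3.58.1 were alternatives. Coordinates, symbols and exon lengths are from GENCODE M21 (GRCm38), and 52083 of 55416 identifiers matched. The relation to the hindbrain score used 100000 permutations and was chosen after seeing the data. All 73 pairs of libraries within a group differed by more than sampling noise (smallest chi-square per degree of freedom 8.43). Library numbers are unique, so no libraries were paired. In simulated data with 100 genes per size, 52% (IleR), 53% (LeuR) and 61% (ValR) of changes of 1 on the log2 scale were recovered in males, and 85%, 81% and 75% of changes of 1.5, and in females 75%, 73% and 84%, and 83%, 88% and 85%. Each simulation changed 200 genes with a mean count of 20 or more in 1 diet group, and 1.44% to 6.21% of its calls were false. The 10 genes and the lists were chosen with earlier results of these data known. All 10 were named in every comparison, from each list up to 2 called genes per comparison and direction, by size of change (mean log2 CPM of 1 or more), and the 3 genes most like each of the 10. Some genes that this rule picks are not reported here. Of the 14 other phosphatase and Sprouty genes listed, 13 were tested, and of 18 ligands 17.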

Additional observations from a re-analysis of the deposited data

Results flagged for a closer look

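Of 60 pairs of gene and group with 4 or more libraries, 1 held a library far from the rest of its group, the male Control 1, in which Dusp10 was at 4.22 CPM while the other 3 Control libraries lay between 6.80 and 7.43. By chance about 1 in 20 such pairs would. Dusp4 and Dusp14 are listed because the change on ValR differed between males and females, by -1.57 and -2.37 on the log2 scale, and the hindbrain score of the male ValR libraries (3.80 to 5.13) did not overlap that of the male Control libraries (-7.61 to -4.58), while in females the ranges overlapped. The part of the score in these differences was not tested beyond the fit with the score as a covariate, in which neither passed.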

How the results depend on the processing

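With the hindbrain score as a covariate, 0 of the 10 genes fell and 0 rose in males on IleR, LeuR or ValR, 0 were higher on ValR than on LeuR, and 0 differed between the sexes on ValR. That fit also turned Dusp5 to -0.16, -1.24 and -0.30 on the log2 scale on IleR, LeuR and ValR, Dusp16 to -0.04 on IleR and Dusp10 to -0.32 on LeuR, and limma voom turned Dusp5 to -0.51 on LeuR. In males the score did not overlap between Control and restricted libraries, so the covariate fit could not separate it from diet. With only the groups compared in the fit, 0 fell and 0 rose on LeuR, 0 were higher on ValR than on LeuR, and for the difference between the sexes 2 were lower on IleR and 1 higher on ValR. At an adjusted p under 0.01, 2 fell and 0 rose on LeuR, 0 were higher on ValR than on LeuR and 0 were lower for the sexes on ValR. For the sexes, DESeq2 called 3 lower on IleR, 2 lower on LeuR and 1 higher on ValR, filterByExpr 1 higher on ValR, and limma voom 0 lower on ValR. The cause was not tested.

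Without 1 library at a time, the count that rose on LeuR was 0 to 1 and that higher on ValR than LeuR 0 to 2. For the sexes it was 0 to 4 lower on IleR, 0 to 2 lower on LeuR, and 0 to 3 lower and 0 to 2 higher on ValR. In these fits Dusp1 on LeuR ranged from -0.55 to 0.05, Dusp5 on LeuR from -1.22 to 0.80 and Spry4 on ValR from -0.18 to 0.03. Of the other settings, 170 of the counts of the 10 genes stayed within 1.5 times and 22 did not, and without 1 library 498 did and 30 did not. These totals pool all comparisons and directions, many with a count of 0 in the main fit, where 0 again was taken as unchanged. With 3 or 4 male libraries a group, changes of 1 on the log2 scale were often missed in simulated data. Fewer genes were changed there than passed in the male comparisons with Control, so the recovery may differ in the real data. No paired analysis was run, since no library number occurs in more than 1 group. Per the study's methods, mice were assigned to diets by cage. The cage of each library was not known here, so libraries were treated as independent.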
